A study of Mus musculus with 4 samples.

Results

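The known target genes of the stress-responsive transcription factor NRF2 described here were followed across liver and white adipose tissue (WAT) of mice labelled Pnpla7-/- and of wild-type mice. The 8 members were Cbr3, Cbr1, Nqo1, Gclc, Gclm, Srxn1, Txnrd1 and Hmox1, taken by gene name from the probes other than controls. They had 9 of the 39429 probes and were 8 of 22327 genes with a symbol. The set was built around Cbr3, which was chosen by its measured log2 ratio in labelled-knockout over wild-type liver, among the highest on these arrays. The question was whether the other members moved with it, so the liver value of Cbr3 is a description and supports nothing.

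The study hybridised 1 one-colour array for each of 4 groups, wild-type liver, Pnpla7-/- liver, wild-type WAT and Pnpla7-/- WAT. All mice were C57BL/6N and 4 weeks old, and each array held RNA of 5 animals pooled in equal parts and labelled with Cy3. Pnpla7 encodes a lysophospholipase acting on lysophosphatidylcholine. The sources used here do not give how the allele was made, the fat depot or the sex of the animals, and the extraction protocol in the labels names livers for all 4 samples. A single pool per group allowed no test, so no p-value was computed, and precision is limited by the number of arrays.

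NRF2 is held in the cytoplasm by KEAP1, which presents it to a CUL3 ubiquitin ligase for destruction. Electrophiles and oxidants modify KEAP1, and NRF2 then accumulates, pairs with small MAF proteins and binds antioxidant response elements, where BACH1 competes with it. Its targets reduce quinones and carbonyls, make glutathione, reduce thioredoxin and break down haem, and liver is one of the organs in which this programme is best known.

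Levels are the log2 of the background-corrected spot intensity minus the array's 75th percentile, and differences are log2 ratios of labelled knockout to wild type in the same tissue. A ratio was called where it reached 2-fold, a log2 ratio of 1. The error beside a ratio is that of the scanner software's error model, which was 0.20 at the median gene, largely from a preset multiplicative error of 0.1. It covers spots only and not the variation between animals. All 9 member probes were well above background on all 4 arrays, and 0 spots were saturated on any array. Between 65.5% and 72.6% of spots were well above background. With its 1 probe, Pnpla7 itself was at -0.18 ± 0.20 (log2 ratio and model error) in liver and at -0.99 ± 0.20 in WAT. Which part of the gene was removed is not stated, so this probe may lie outside it and checks nothing, and the arrays are called labelled knockout throughout.

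Tissue labels were set against marker lists, as the sum of linear levels in multiples of the 75th percentile. The 10 hepatocyte markers summed to 1500 in wild-type and 1281 in labelled-knockout liver against 95.7 and 102 in WAT, where all 10 were still well above background. Transferrin (Trf) made up most of the WAT sums, at a log2 level of 6.30 in wild type and 6.57 in the labelled knockout, while the other 9 were lower in labelled-knockout WAT. Of the 10, 5 passed 2-fold downwards there, where 2.01% of all genes did. Among these 5 were Alb (-1.58) and Ttr (-1.62), and the median log2 ratio of the 10 was -1.04. The 10 adipocyte markers summed to 816 and 935 in WAT against 14.7 and 19.0 in liver, where Adipoq, Lep and Cfd were not well above background on either array. In bulk tissue, fewer cells of a type and less RNA per cell cannot be told apart.

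Of the 8 members, 2 were at least 2-fold higher in labelled-knockout liver, Cbr3 and Srxn1, and 0 were at least 2-fold lower. The liver background was 15568 genes, with 1.75% higher by that limit, 0.886% lower and 2.64% either way. Apart from Cbr3, which the choice of the set fixed, this left 1 of 7. The other 6 members lay between log2 ratios of -0.17 and 0.47. The median of the 7 members other than Cbr3 was 0.22, beside -0.03 over all genes. In the genome-wide counts, 273 genes were higher and 138 lower, but with normexp background correction they were 103 and 242 (offset 50) or 112 and 1440 (offset 1), so the balance of the background turned with that setting while Cbr3 and Srxn1 stayed past 2-fold under all 8 alternatives tried.

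**Figure D1:**
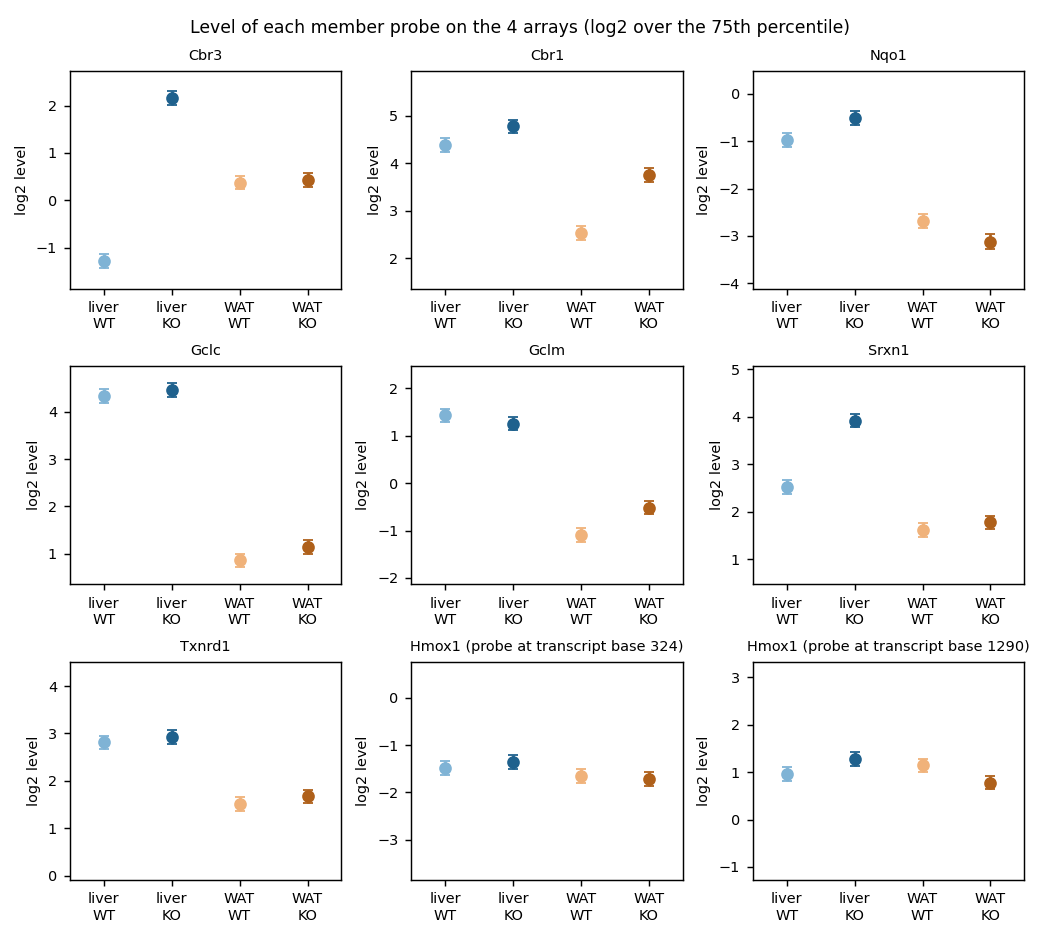
Log2 level of each of the 9 member probes (1 panel each, all panels spanning the same range of log2 units) on the 4 arrays, relative to the array's 75th percentile. WT is wild type and KO the array labelled Pnpla7-/-; each point is 1 array of 5 pooled animals and bars are the scanner software's model error. Cbr3 is lowest in wild-type liver (-1.28) and highest in labelled-knockout liver (2.16).

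Cbr3 encodes a cytosolic carbonyl reductase of the short-chain dehydrogenase family that uses NADPH. Its signal was 0.411 times the 75th percentile in wild-type liver, 4.46 times in labelled-knockout liver, 1.30 times in wild-type WAT and 1.35 times in labelled-knockout WAT. Labelled-knockout liver stood above the other 3 arrays and wild-type liver below them, while both WAT arrays differed by less than the model error. In liver the log2 ratio was 3.44 ± 0.20 (model error), or 10.8-fold, and 5 of 15568 genes had a higher ratio. In WAT it was 0.06 ± 0.20. Wild-type WAT was 1.66 above wild-type liver on the log2 scale, whereas labelled-knockout WAT was 1.72 below labelled-knockout liver, so the tissue with more Cbr3 differed between genotypes. The liver ratio exceeded the WAT ratio by 3.38, with a model error of 0.29.

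These values rest on a single 60-base probe at chr16:93691120-93691179 (mm9, plus strand), which starts at base 1050 of the transcript in the array's annotation. The first 30 bases of the probes for the 2 members called in liver are given because no second probe backs either value. The Srxn1 probe lies at chr2:151937009-151937068 (mm9, plus strand) and starts at base 2502 of its transcript.
Cbr3: tctgcaaactcagtctgaacaattcgctgt
Srxn1: gaagaatgtatgggaactctagtctctgca

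Srxn1 encodes sulfiredoxin, which repairs peroxiredoxins that have been over-oxidised at their catalytic cysteine. It was at 5.71 times the 75th percentile in wild-type liver and 15.1 times in labelled-knockout liver, against 3.07 and 3.41 times in wild-type and labelled-knockout WAT. Labelled-knockout liver was the highest array, wild-type liver came next, and both WAT arrays differed by less than the model error. The liver log2 ratio was 1.41 ± 0.20, or 2.65-fold, with 116 genes higher, and ranged between 1.39 and 1.48 under the 8 alternatives. In WAT it was 0.15 ± 0.20. Its liver ratio exceeded its WAT ratio by 1.25, with a model error of 0.29. The order of the tissues did not turn as it did for Cbr3, since the WAT level minus the liver level was -0.90 in wild type and -2.15 in the labelled knockout.

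Cbr1, the close relative of Cbr3 that reduces quinones, prostaglandins and many drugs, lies beside it on chromosome 16. The Cbr1 probe sits at chr16:93610453-93610512 (mm9), 80.6 kb before the Cbr3 probe. Its level was 20.9 times the 75th percentile in wild-type liver, 27.4 times in labelled-knockout liver, 5.78 times in wild-type WAT and 13.4 times in labelled-knockout WAT. Both liver arrays were above both WAT arrays, and every step in that order was larger than the model error. The liver ratio of 0.39 ± 0.20 was within 2-fold. In WAT Cbr1 was the 1 member of 8 that reached 2-fold, at 1.21 ± 0.20 or 2.32-fold higher, against a background of 16131 genes with 2.16% higher, 2.01% lower and 4.18% either way. Cbr1 was thus higher by more than its model error in both labelled-knockout pools and past 2-fold in WAT. Of all genes, 16.6% in liver and 24.7% in WAT were also higher by more than their model error.

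The genes on either side of the pair were set beside it. Setd4, before Cbr1, was at a log2 ratio of -0.06 in liver and 0.69 in WAT. Beyond Cbr3, Dop1b had -0.20 and -0.14, Morc3 0.00 and -0.24, and Chaf1b, a subunit of the chromatin assembly factor that acts in DNA replication, 0.82 and -0.18. No one of these 4 reached 2-fold in either tissue, where 2.64% of all genes did in liver and 4.18% in WAT. Among other carbonyl reductases, Cbr4 had -0.27 in liver and 0.38 in WAT, Dhrs4 -0.11 and 0.55, and Dcxr -0.58 and 0.29. Cbr2 was at -0.28 in liver, where it was dim (-4.39 in wild type) and reached -1.03 with normexp at offset 1. In WAT, Cbr2 was at -1.20, with both probes past 2-fold (-1.28 and -1.11). In labelled-knockout WAT Cbr1 was therefore higher and Cbr2 lower, while Cbr3 was level within its model error.

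Nqo1, the quinone reductase most often read as an NRF2 marker, was within 2-fold in both tissues. Its signal relative to the 75th percentile was 0.508 times in wild-type liver, 0.705 times in labelled-knockout liver, and 0.155 and 0.115 times in wild-type and labelled-knockout WAT. The knockout-labelled array was the higher of the pair in liver and the lower in WAT. The log2 ratios were 0.47 ± 0.20 and -0.42 ± 0.21, so each passed its model error. They ranged from 0.38 to 0.51 in liver and from -0.46 to -0.24 in WAT under the alternatives.

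Gclc and Gclm, the catalytic and modifier subunits of glutamate-cysteine ligase, which catalyses the limiting step of glutathione synthesis, did not move with Cbr3. Gclc was at 20.1 and 22.0 times the 75th percentile in wild-type and labelled-knockout liver, and at 1.81 and 2.20 times in WAT. Its log2 ratios were 0.13 ± 0.20 and 0.28 ± 0.20. Gclm was at 2.70 and 2.39 times in liver and at 0.469 and 0.700 times in WAT. It had the lowest liver ratio of the 8 members, -0.17 ± 0.20, within its model error, and the second highest in WAT, 0.58 ± 0.20. The 2 subunits thus had liver ratios of opposite sign, neither larger than its error, and WAT ratios of the same sign.

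Txnrd1, the cytosolic thioredoxin reductase, was at 7.02 and 7.59 times the 75th percentile in wild-type and labelled-knockout liver and at 2.84 and 3.18 times in WAT. Its log2 ratios of 0.11 ± 0.20 and 0.17 ± 0.20 were both within the model error. Hmox1 encodes the inducible haem oxygenase, which opens the haem ring and is abundant in macrophages that clear red cells. It was the only member with more than 1 probe. The probe starting at base 1290 of the transcript was at 1.95, 2.43, 2.21 and 1.72 times the 75th percentile on the wild-type and labelled-knockout arrays of liver and then of WAT. The probe at base 324 was at 0.357, 0.390, 0.318 and 0.302 times. Both probes were higher in labelled-knockout liver (log2 ratios 0.32 and 0.13) and lower in labelled-knockout WAT (-0.36 and -0.07). The mean over both was 0.22 ± 0.20 in liver and -0.22 ± 0.21 in WAT. Hmox1 spanned the narrowest range over the 4 arrays, and no step between neighbouring arrays in its order exceeded the model error with either probe.

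**Figure D2:**
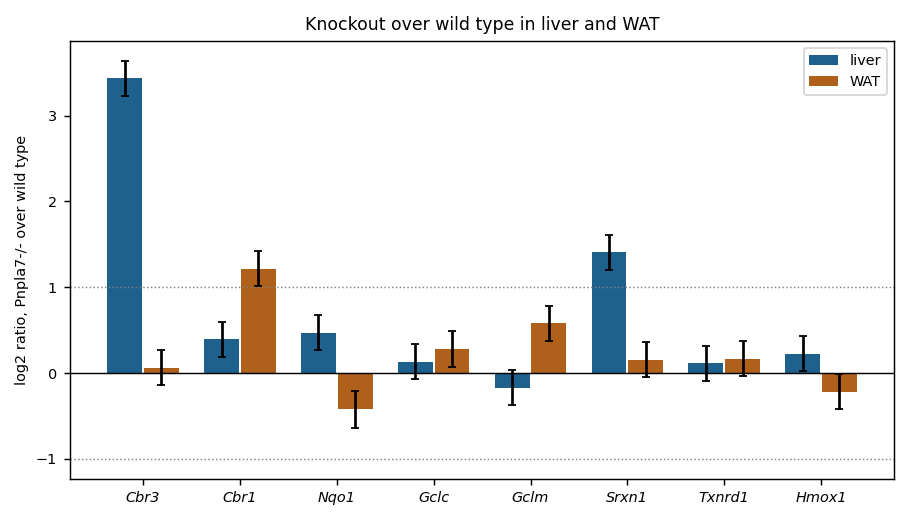
Log2 ratio of labelled Pnpla7-/- over wild type for each member in liver (blue) and WAT (brown). Bars are 1 pool against 1 pool, whiskers are the scanner software's model error and dotted lines mark 2-fold. Cbr3 (3.44) and Srxn1 (1.41) pass 2-fold in liver and Cbr1 (1.21) in WAT.

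Markers of other cell types differed between the same pools. In liver the sum over 10 macrophage and Kupffer cell markers was 50.5 in wild type and 53.5 in the labelled knockout, with all 10 well above background, 4 log2 ratios above 0 and 6 below, and a median of -0.11. The 8 erythroid markers on the array summed to 42.7 and 24.9 in liver, with 5 well above background on each array. All 5 measured were below 0 there (median -0.78), where 44.2% of all genes were above 0. Klf1 (-1.04) was the 1 at least 2-fold lower, where 0.886% of all genes were. In WAT the erythroid markers summed to 106 and 83.3, with all 4 measured below 0 (median -0.48). The 9 epithelial markers summed to 68.1 and 90.7 in liver. The epithelial genes were divided, 4 above 0 and 4 below with a median log2 ratio of 0.05, from Cdh1 at 0.69 to Wfdc2 at -1.04. Krt18 made up most of both liver sums, at log2 levels of 5.29 in wild type and 5.76 in the labelled knockout. Krt19 (-0.44) and Krt7 (-0.20) were among those below 0, so the higher sum does not describe the list. In WAT the 10 skeletal muscle markers summed to 3.60 and 49.3 and the 8 thermogenic fat markers to 61.1 and 217, with all 10 and all 8 at least 2-fold higher in the labelled-knockout pool, where Cbr1 was called. The epithelial markers summed to 2.53 and 8.42 in the same pools, with all 7 measured above 0, where 52.8% of all genes were. Of the 7, 3 were at least 2-fold higher, Wfdc2 (6.87), Cldn3 (4.58) and Krt18 (2.17). The macrophage sum was 4.05 and 2.27 there, with Clec4f not well above background in the labelled knockout and all 9 measured below 0 (median -0.77). These stand beside the Cbr1, Cbr2 and Hmox1 values in WAT, as does the lower hepatocyte median. The part of these differences in the member ratios was not tested.

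In wild-type animals most members were higher in liver than in WAT, though all were well above background in both tissues. Of 8, 5 were at least 2-fold lower in WAT than in liver, where 15.6% of 15305 genes were, and 1, Cbr3, was at least 2-fold higher, where 18.1% were (33.7% either way). Gclc showed the widest gap among the members, with a log2 ratio of WAT to liver of -3.47, or 11.1-fold lower. The same ratio was -2.52 for Gclm, -1.85 for Cbr1, -1.72 for Nqo1 and -1.31 for Txnrd1. Srxn1, at -0.90, and Hmox1, at 0.01 (-0.05 with quantile normalization), were within 2-fold. The wild-type liver array serves both here and as the base of the liver ratios, so the low Cbr3 signal on it enters both.

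**Figure D3:**
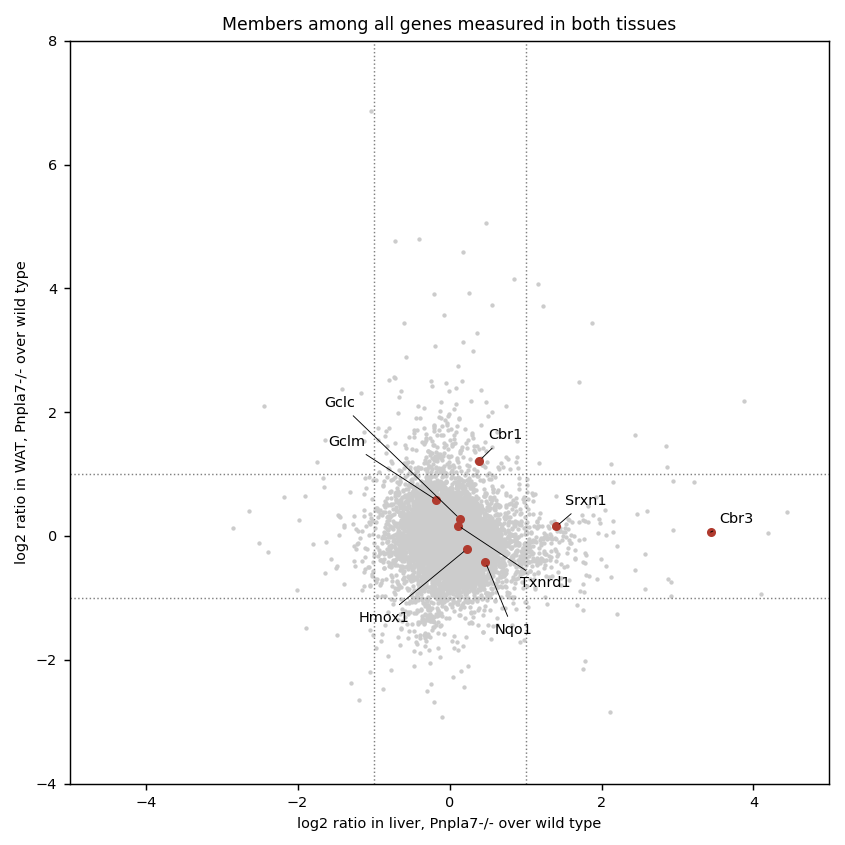
Log2 ratio of labelled Pnpla7-/- over wild type in liver (horizontal) against WAT (vertical) for the 14896 genes measured in both tissues (grey), with the 8 members in red; dotted lines mark 2-fold. Cbr3 and Srxn1 lie to the right near 0 in WAT, Cbr1 lies above the WAT line, and the other 5 lie inside both limits.

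The regulators of NRF2 were all measured, and 0 of 10 reached 2-fold in either tissue. Of all genes, 2.64% did in liver and 4.18% in WAT. The median log2 ratio of the regulators was -0.09 in liver, beside -0.03 over all genes, and 0.18 in WAT, beside 0.02. Nfe2l2, which encodes NRF2 itself, was at -0.21 ± 0.20 in liver and 0.23 ± 0.20 in WAT. Keap1 was at 0.06 and 0.17 and Bach1 at -0.20 and -0.12. Sqstm1, an autophagy receptor that binds KEAP1 and is also an NRF2 target, was at 0.28 in liver, or -0.01 with normexp at offset 50, and at 0.22 in WAT. The small MAF gene Maff had the largest WAT ratio of the list, 0.54. NRF2 is regulated mainly at the level of the protein, which these arrays do not measure.

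Beyond the members, 68 genes of the pathway were listed by role. They include regulators such as Keap1 and Bach1, so the pooled values are not those of NRF2 targets alone. Of the 68, 65 were measured in liver. Of these, 3 passed 2-fold upwards, where 1.75% of all genes did, and 1 downwards, where 0.886% did, and the median log2 ratio was -0.10. The 3 higher genes were Gsta2 (1.21), a glutathione S-transferase whose near-identical relative Gsta1 has no probe of its own here and may share its signal, Gpx2 (1.05), a glutathione peroxidase, and Abcc4 (1.01), an efflux pump of conjugates. Gpx2 was dim in wild-type liver (-3.58) and was at 0.35 with normexp at offset 50, and Abcc4 was at 0.72. The lower gene was Me1 (-1.10), which makes NADPH in the cytosol and is also a lipogenic enzyme, and it was at -0.90 with quantile normalization. In WAT, 63 were measured and 1 passed 2-fold, where 4.18% of all genes did. It was Abcc3, which was lower (-1.40), while the list median was 0.23.

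By role, the glutathione list had a liver median of 0.20 over 7 measured genes. Gss, glutathione synthetase, was at 0.33, Slc3a2 at 0.24 and Chac1, which breaks glutathione down, at -0.73. Slc7a11, the cystine transporter subunit, was not well above background on any array, and Ggt1 was so only in labelled-knockout liver. All 7 thioredoxin and peroxiredoxin genes had liver ratios below 0, with a median of -0.31, Txnip at -0.80 and Prdx6 at -0.54. Over all genes, 44.2% of liver ratios were above 0. Txnrd3 (-0.05), Sesn2 (-0.12) and Txn1 were within their model error, while Txnip, Prdx6, Txnrd2 and Prdx1 passed it. Prdx1, a substrate of sulfiredoxin, was at -0.31, in the same pool in which Srxn1 was called higher. Txn1, thioredoxin itself, was at -0.15, or 0.00 with quantile normalization.

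CBR3, CBR1, NQO1 and thioredoxin reductase consume NADPH. The list for its supply had a liver median of -0.38 and a WAT median of 0.34 over 6 genes. Of these, Tkt and Taldo1 act in the pentose phosphate pathway but do not make NADPH themselves. G6pdx, the entry enzyme of the pentose phosphate pathway, was at -0.90 in liver and 0.34 in WAT, and Me1 at -1.10 and 0.78. Quantile normalization brought the WAT median to 0.11. The haem and iron list lay within 2-fold throughout, past which 2.64% of all genes lay in liver and 4.18% in WAT. Its medians were -0.14 and 0.26, with Blvrb at -0.14 and 0.26 and the ferritin chain Ftl1 at -0.23 and 0.44. Among 14 conjugation genes measured in liver, Gsta2 alone reached 2-fold, where 2.64% of all genes did. Gstp1 was at 0.77 and Gstm3 at 0.41, while the list median was -0.07, turning to 0.07 with quantile normalization. Osgin1, an oxidative stress-induced growth inhibitor, led the other aldehyde and quinone genes in liver at 0.87, and their median was 0.09. The efflux pumps had a liver median of 0.10, which turned to -0.19 with normexp at offset 50.

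Targets of the aryl hydrocarbon receptor, which also drives Nqo1, were set beside the members. The list also held Ahr, the gene of the receptor itself. Of 5 genes measured in liver, Ahr included, 0 reached 2-fold, where 2.64% of all genes did, and the median was -0.20. Cyp1a2 was at -0.70 and Cyp1a1 at -0.53, while Cyp1b1 was at 0.95 from a dim wild-type level (-4.73) and at -0.33 with normexp at offset 50. In WAT, Cyp1a1 was at 1.02, or 0.86 with normexp at offset 50, while Nqo1 was at -0.42. Cyp1a1 was the 1 of 5 to reach 2-fold there, where 4.18% of all genes did.

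**Figure D4:**
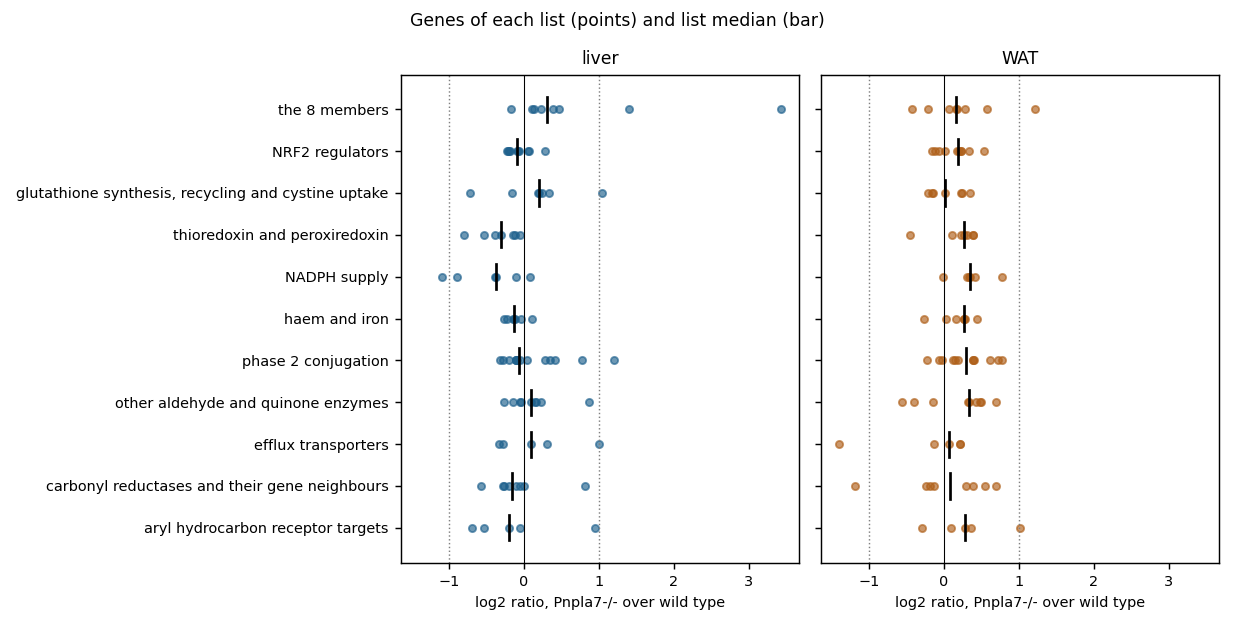
Log2 ratio of labelled Pnpla7-/- over wild type for the measured genes of each list (points) and the list's median (black bar) in liver and WAT; dotted lines mark 2-fold. In liver Cbr3 and Srxn1 lie apart from the other members, and the thioredoxin and NADPH lists have medians below 0 (-0.31 and -0.38).

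The genes whose pattern over the 4 arrays was most like that of Cbr3 were none of the other members. Likeness was the root mean square difference of the 4 levels after centring each gene, over 14902 genes well above background on all 4 arrays, and 4 arrays with shared controls make it a description only. Among the nearest were Trem2 (0.43 on the log2 scale), a receptor of lipid-laden macrophages, Ubd (0.45), a ubiquitin-like modifier, Tceal5 (0.47) and Pwwp3b (0.50). Their liver log2 ratios were between 2.15 and 4.45, and high values there follow in part from the choice by likeness to Cbr3. Among the members Srxn1 was nearest to Cbr3, at rank 370 with a difference of 1.04, followed by Hmox1 at rank 1211. The remaining 5 members ranked between 9332 and 13925, with Gclc the least like Cbr3 (2.05). The gap between tissues enters this measure, so the ranks do not describe the labelled-knockout ratios alone. In wild type the log2 ratio of WAT to liver was 1.66 for Cbr3, 0.01 for Hmox1 and -3.47 for Gclc. Nqo1, with a higher liver ratio (0.47) than Hmox1 (0.22), ranked below it.

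Promoter windows, from 250 bases before to 50 after the start, were read from RefSeq (GRCm38.p6) because the members share a known regulator. Of 8 members 6 had an entry, with 8 windows in all, and Gclc and Hmox1 had none. The antioxidant response element core was searched as TGACNNNGC on both strands, with no other motif searched. It was found in 3 of 8 member windows and in 12.4% of the 32851 windows in the table. The matches were in Gclm, with its first base 134 bases before the start, in 1 of the 3 Txnrd1 windows, 92 bases before it, and in Srxn1, within the 50 bases after it. Cbr3, Cbr1 and Nqo1 had no match in these windows. The 250 bases before the start are shown for the 2 members called in liver and for Gclm, the member with the lowest liver ratio, with the match in capitals as its reverse complement. They lie at chr16:93682969-93683218, chr2:152105274-152105523 and chr3:122245307-122245556, each on the plus strand.
Cbr3: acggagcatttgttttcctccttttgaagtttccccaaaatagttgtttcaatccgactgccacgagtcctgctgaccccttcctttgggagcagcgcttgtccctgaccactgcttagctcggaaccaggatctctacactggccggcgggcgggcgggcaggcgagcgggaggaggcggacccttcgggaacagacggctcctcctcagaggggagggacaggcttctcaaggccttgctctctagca
Srxn1: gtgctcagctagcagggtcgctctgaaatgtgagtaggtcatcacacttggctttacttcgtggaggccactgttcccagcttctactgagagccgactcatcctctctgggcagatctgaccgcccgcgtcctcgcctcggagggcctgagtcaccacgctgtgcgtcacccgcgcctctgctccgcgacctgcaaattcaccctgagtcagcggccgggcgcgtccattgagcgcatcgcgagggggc
Gclm: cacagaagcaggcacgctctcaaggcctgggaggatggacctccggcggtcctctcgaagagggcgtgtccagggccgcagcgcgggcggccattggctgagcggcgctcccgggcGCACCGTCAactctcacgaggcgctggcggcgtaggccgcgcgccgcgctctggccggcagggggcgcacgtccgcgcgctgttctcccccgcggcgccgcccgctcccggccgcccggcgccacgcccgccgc
Only exact matches to the searched form are marked, so an element of another form within the printed bases would not be. The letters tgagtcagc in the Srxn1 window, with g in place of the C of the motif, were left unmarked for this reason. A response element can also lie far outside the windows.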

How the data were processed

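Gene expression was measured on 4 one-colour Agilent arrays. The scanner output deposited for each array holds intensities per spot, made with Agilent Feature Extraction 11.0.1.1 per the submitters' processing notes. Per the file headers, its processed signal is corrected for background and multiplicative trends and not normalized between arrays. The deposited series table holds the authors' signal on a linear scale. Checked against the scanner files, each column was the processed signal divided by 1 constant (1470 and 1764 for the wild-type and labelled-knockout liver arrays, 1690 and 1613 for those of WAT), with column medians of 0.0737, 0.0751, 0.0876 and 0.0875. Probe coordinates are on mm9, per the file headers.

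From these intensities, log2 levels were computed relative to each array's 75th percentile, controls left out. Outlier spots (79 to 110 per array) were left out and spots of a probe averaged. A probe was measured where more than 0.5 of its spots passed the well-above-background mark on both arrays, and a gene was the mean of its measured probes. The model error of a gene was likewise the mean of its probes' errors, not the error of the averaged ratio. Probe names came from a RefSeq table of GRCm38.p6 (27234 by accession, 3576 by symbol, 565 by synonym, 8054 unnamed). Between probes of 1 gene, the pooled SD of the log2 ratio was 0.20 for liver, 0.23 for WAT and 0.67 for wild-type WAT over wild-type liver. The steps were tested on simulated data.

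The members and all gene lists were chosen with earlier results of these data known. Named genes were the members, up to 4 of each list with the largest ratios per tissue, Nfe2l2, Keap1, Bach1, the carbonyl reductases and neighbours, Pnpla7 and the 5 genes most like Cbr3, of which 1 is not reported here; not all list genes meeting this are named, and Txn1, Prdx1, Slc7a11 and Ggt1 were added for their role. Alternatives were normexp correction (limma 3.58.1 in R 4.3.3, offsets 50 and 1), quantile normalization, a percentile over detected probes, the series table, no filter on dim probes, outlier spots kept and the brightest probe of a gene. Analyses used Python 3.11.15.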

Additional observations from a re-analysis of the deposited data

Results flagged for a closer look

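Nqo1 was flagged because its log2 ratio was positive in liver (0.47) and negative in WAT (-0.42), each past its model error. Hmox1 was flagged for the same reason, with 0.22 in liver and -0.22 in WAT, values only just past their errors and carried mostly by 1 of its 2 probes. The errors of Hmox1 are means of the errors of its 2 probes, not errors of the averaged ratio. The difference between tissues was not tested for either gene, since each group had 1 array.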

How the results depend on the processing

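Over 8 alternatives the member ratios kept their sign in liver and in WAT, and the called members stayed past 2-fold. The number of members past 2-fold was the same in each of the 3 comparisons under every alternative. The liver ratio of Cbr3 moved from 3.44 to 3.22 with normexp at offset 50. The 4 pathway genes past 2-fold in liver became 1 with normexp at offset 50, 2 with it at offset 1 and 1 with quantile normalization. Of all 15568 genes in liver, 273 were higher and 138 lower in the main setting. These became 103 and 242 at offset 50, 112 and 1440 at offset 1, and 242 and 122 with quantile normalization. The 1 such gene in WAT became 2 with dim probes included, which raised the genes counted in WAT from 16131 to 22326. Normexp moved the liver median of all genes from -0.03 to -0.19 (offset 50) and -0.20 (offset 1), and relative to that median Srxn1 lay between 1.40 and 1.69 over the alternatives, Cbr3 was at least 3.33, and Gclm turned from -0.14 to as much as 0.09. The higher genes were 66.4% of those past 2-fold in liver, and 29.9% and 7.22% with normexp at offsets 50 and 1. The counts past 2-fold in WAT, 349 higher and 325 lower, were 216 and 163 with normexp at offset 50. With dim probes included they were 713 and 703, and 710 and 446 in liver. Of 1360 values under alternatives, 1304 moved by less than their limit, 56 by more, and 0 values past 2-fold changed sign; values nearer 0 that changed sign are given beside their genes. Single probes, dim wild-type signals and 1 pool per group limit every value. No paired analysis was possible because each group has 1 array.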

Other observations

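On the wild-type arrays the pathway's roles were split between the tissues. Of the 6 genes on the NADPH list, 5 were at least 2-fold higher in WAT, where 18.1% of all genes were. They include Tkt and Taldo1, which do not make NADPH themselves. The list's median log2 ratio of WAT to liver was 2.13. G6pdx was 3.43 higher, Pgd 2.71, Tkt 2.17, Me1 2.10 and Taldo1 1.15, and only Idh1 was lower (-0.54). Conjugation genes lay the other way, with 10 of 12 measured at least 2-fold lower in WAT, where 15.6% of all genes were, and a median of -2.39. Gstm1 was at -3.17, and the 2 probes of Gstm3 were at -8.57 and -2.98. The efflux pumps were divided, with Abcc2 at -8.05 and Abcc3 at -4.98 against Abcc1 at 4.15 and Abcc4 at 1.26. The 2 probes of Cbr2 were 4.29 and 8.62 higher in WAT, far apart but of the same sign, beside Cbr3 at 1.66 and Cbr1 at -1.85.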
